A study of Mus musculus with 6 samples.

Results

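The vacuolar proton pump (V-ATPase) and the lysosome were examined through 41 named genes in macrophages (MPs) of injured mouse muscle. The genes were chosen by name, for the pump, for the enzymes inside the lysosome and for the lysosomal membrane and its control, and each had to be present in the deposited expression table, so the measured value that selected them was their passing of the authors' filter on expression. Of 41 listed genes, 41 were present, among 13008 genes in the table. They were treated as 3 groups, with 18 V-ATPase genes, 14 hydrolases with their activators, and 9 membrane or regulator genes. The difference in Atp6v0e2 between the groups of mice was known when the list was drawn up, so it is not independent evidence for the list.

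RNA-seq was performed on F4/80+/Ly6C Low MPs sorted on day 5 after cardiotoxin injury of hind limb muscles, from 3 Control and 3 Cripto KO samples. In Cripto KO mice (Tg:LysMCre::Cripto-/-), Cripto, a co-receptor for TGF-beta family ligands, is targeted for deletion in cells where the lysozyme M promoter drives Cre. These cells are the myeloid lineage and not MPs alone. All mice were C57BL/6J, male and 3 months old by their labels. Control is called wild type in the labels, and the Cripto KO label names no reporter. The text of the study instead gives both groups of this sort LysMCre and a GFP reporter of recombination (R26mTmG), with floxed Cripto alleles in the Cripto KO mice, and adds GFP to the markers sorted on. The labels do not say whether each sample is a separate animal, although the study speaks of biological replicates, so p-values measure the spread between these samples.

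Control samples held 12688968 to 14141773 recovered reads and Cripto KO samples 14633880 to 15659847. Values are given as deposited, where 1 unit is 1 read in a normalized library of 1000000 reads, after 0.5 was added to each count of reads. Tdgf1, which encodes Cripto, was not analysed here, and no check of the deletion was made. A pair of Control libraries stood apart. Control replicate 1 went against its male label, with Xist at 171 against 0.885 or less in the other 5 samples and 4 genes of the Y chromosome summing to 0.368 against 130 or more. Control replicate 2 had Lyz2, the gene into which LysM-Cre is inserted, at 11066, against 21.2 to 28.3 in the other 5 samples. Control replicates 1 and 3, at 25.2 and 21.4, thus lay within the range of the Cripto KO samples, although the labels call all Control samples wild type. The Control samples were therefore not alike in Lyz2, and the cause was not tested.

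The V-ATPase moves protons into endosomes and lysosomes at the cost of ATP, and the acid it makes there is needed by most lysosomal hydrolases. Its V1 sector, on the cytosolic side, holds the subunits that split ATP, and its V0 sector, in the membrane, carries the protons. Lysosomes are prominent in MPs because these cells take up and digest dead cells and debris, which are abundant in muscle after cardiotoxin. The transcription factors TFEB, TFE3 and MITF can raise many lysosomal genes together through a palindromic E-box motif near their start sites.

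Of the 41 genes, Atp6v0e2 was the member that differed between Control and Cripto KO MPs. It encodes a form of subunit e, a small membrane protein of the V0 sector, for which Atp6v0e encodes the more abundant form. Atp6v0e2 (ENSMUSG00000039347) lies on chromosome 6 of GRCm38, plus strand, from 48537615 to 48541801. Atp6v0e (ENSMUSG00000015575) lies on chromosome 17, plus strand, from 26663231 to 26699647. The windows around their start sites are shown from RefSeq (GRCm38.p6), because this pair differed both in level and in promoter sequence. Each runs from 250 bases before the start site to 30 bases from it on, and capitals mark TCACGTGA, the longer form of the E-box palindrome. The window of Atp6v0e2 is chr6:48537319-48537598 and that of Atp6v0e is chr17:26676146-26676425, both on the plus strand.
Atp6v0e2: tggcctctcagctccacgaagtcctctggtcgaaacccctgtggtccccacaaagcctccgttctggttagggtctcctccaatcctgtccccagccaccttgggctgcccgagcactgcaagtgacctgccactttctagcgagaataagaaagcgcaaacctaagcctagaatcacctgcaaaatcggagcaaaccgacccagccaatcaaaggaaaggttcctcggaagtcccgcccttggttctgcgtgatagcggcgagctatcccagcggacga
Atp6v0e: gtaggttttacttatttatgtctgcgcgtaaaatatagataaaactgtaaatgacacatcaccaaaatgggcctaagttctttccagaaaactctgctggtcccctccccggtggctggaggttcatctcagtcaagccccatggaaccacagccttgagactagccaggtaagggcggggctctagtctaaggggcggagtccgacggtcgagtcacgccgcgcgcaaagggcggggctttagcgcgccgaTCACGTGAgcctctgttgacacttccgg
Neither CACGTG nor TCACGTGA was in the window of Atp6v0e2. In Atp6v0e, TCACGTGA began 2 bases after the first transcribed base.

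In Control MPs, Atp6v0e2 was at 1.36, 0.643 and 2.00 in replicates 1, 2 and 3. In Cripto KO MPs it was at 13.0, 19.9 and 19.4. All Cripto KO samples were above all Control samples, and Control replicate 2 was lowest. The values came from 18, 8 and 24 reads in Control and from 204, 280 and 281 reads in Cripto KO samples, so counting error was largest in Control. Atp6v0e2 was 1.33 ± 0.678 in Control MPs and 17.4 ± 3.84 in Cripto KO MPs (mean ± SD, n = 3 each). The log2 difference, Cripto KO minus Control, was 3.83 with a standard error of 0.38, a 14.2-fold difference with a 95% interval from 7.81 to 25.8 (adjusted p = 0.00845, limma, Benjamini-Hochberg over 13008 genes). By adjusted p it stood at rank 5 of all genes. It was 1 of 41 members past an adjusted p of 0.05, a threshold that 17 of 13008 genes passed, or 0.131%.

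The direction and size of the difference in Atp6v0e2 were similar without the libraries that stood apart. Its log2 difference was 3.91 without Control replicate 1 (adjusted p = 0.00858, limma) and 3.37 without Control replicate 2 (adjusted p = 0.00365, limma). It was 3.72 without Cripto KO replicate 2 and 3.74 without Cripto KO replicate 3, where the adjusted p was 0.0877 and 0.0592 (limma). Leaving out either of these Cripto KO samples thus moved its adjusted p above 0.05. With all samples, the call was also lost without a variance trend (adjusted p = 0.157, limma) and with the replicate number as a block (adjusted p = 0.0552, limma). In bulk samples, fewer cells of a type and less RNA per cell cannot be told apart, and this holds for each value given here.

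Atp6v0e was at 190, 219 and 234 in Control and at 219, 236 and 239 in Cripto KO MPs. The groups overlapped, and its log2 difference was 0.11 with a 95% interval from -0.08 to 0.31 (adjusted p = 0.754, limma), and 0.03 without Control replicate 1. Per kilobase of the longest coding transcript, Atp6v0e2 made up 1.12%, 0.459% and 1.32% of the summed level of both genes in Control, and 8.52%, 11.7% and 11.3% in Cripto KO MPs. The mean share was 0.966% ± 0.451 in Control MPs and 10.5% ± 1.74 in Cripto KO MPs (mean ± SD, n = 3 each). The summed level per kilobase was 77.0 ± 8.20 in Control MPs and 92.0 ± 5.89 in Cripto KO MPs (mean ± SD, n = 3 each). Atp6v0e was therefore the main form of subunit e in every sample, also where Atp6v0e2 was highest.

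**Figure D1:**
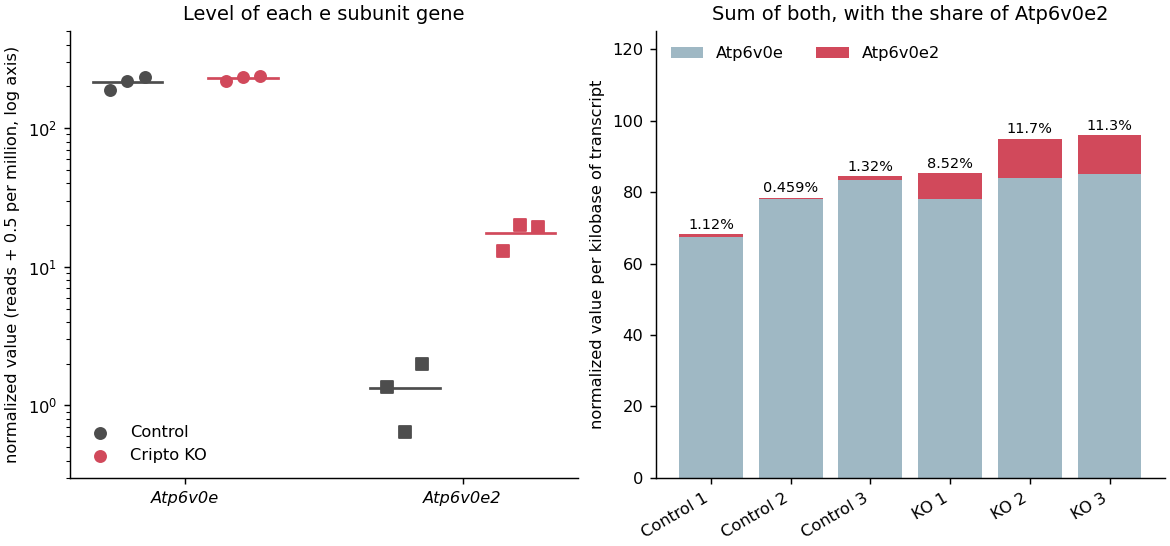
Left, normalized value of Atp6v0e (circles) and Atp6v0e2 (squares) in each of 3 Control (grey) and 3 Cripto KO (red) samples on a log axis, with lines at the group means. Right, stacked bars of the level per kilobase of transcript in each sample, with the percentage of Atp6v0e2 above each bar, which lies between 0.459% and 1.32% in Control MPs and between 8.52% and 11.7% in Cripto KO samples.

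The paralogs shared little sequence. Of 2381 words of 31 bases in the exons of Atp6v0e2, 17 also occurred in Atp6v0e, and no exon of another annotated gene overlapped those of Atp6v0e2. With all other annotated genes, 5.71% of its words were shared, most of them (3.15%) with Brip1os. Brip1os was 36.7 ± 4.49 in Control MPs and 37.1 ± 3.37 in Cripto KO MPs (mean ± SD, n = 3 each; log2 difference 0.02). How the authors' counting divided reads among these genes was not tested.

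Of the measured genes next to Atp6v0e2, 3 on either side were examined. Zfp862-ps, 2.78 kb before Atp6v0e2, was 2.47 ± 0.608 in Control MPs and 2.39 ± 0.215 in Cripto KO MPs (mean ± SD, n = 3 each; log2 difference -0.02). Gm7887, 12.5 kb before Atp6v0e2, was at 4.97, 3.67 and 2.08 in Control and at 5.30, 6.12 and 5.62 in Cripto KO MPs. Its groups did not overlap, and its log2 difference of 0.75 had an unadjusted p of 0.032 and an adjusted p of 0.533 (limma). Lrrc61, 13.0 kb after Atp6v0e2, was 14.6 ± 0.470 in Control MPs and 14.4 ± 1.49 in Cripto KO MPs, given as for Zfp862-ps (log2 difference -0.02). Rarres2 and Repin1, on the far side of Lrrc61, had log2 differences of -0.30 and 0.03, with overlapping groups. Gm10243, 13.8 kb before Atp6v0e2, was at 30.1 in Control replicate 1 and at 0.0408 or less in the other Control samples, and at 0.0952 in Cripto KO replicate 1 and 29.5 in Cripto KO replicate 2, with replicate 3 close to the latter. This neighbour was thus high in samples of either group, and its groups overlapped. The nearest gene on either side thus had nearly the same mean in both groups, whereas Gm7887, the next gene before Atp6v0e2, was higher in all Cripto KO samples.

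The remaining V0 subunits differed little between the groups. Subunit c (Atp6v0c), the proteolipid that is present in several copies in the proton-carrying ring, had the highest level per kilobase of the V-ATPase genes, at 1329 ± 65.2 (SD over 6 samples). It was at 1597, 1637 and 1626 in Control and at 1428, 1598 and 1547 in Cripto KO MPs, where replicate 2 reached into the range of Control. Its log2 difference was -0.09 with a 95% interval from -0.26 to 0.08, and 11.9% of its exon words were shared, nearly all with the pseudogene Atp6v0c-ps2. Atp6v0b, another subunit of the ring, was at 427 ± 18.2 per kilobase (SD over 6 samples).

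Subunit a links the proton path to the stalk and helps to place the pump in a given membrane. Atp6v0a1 was at 139, 171 and 167 in Control and at 188, 180 and 169 in Cripto KO MPs. Control replicate 1 was lowest, and Cripto KO replicate 3 lay within the range of Control, with a log2 difference of 0.18 and an adjusted p of 0.649 (limma). Without Control replicate 1 this difference was 0.08. Atp6v0a2 was at 6.70 ± 0.474 per kilobase (SD over 6 samples), and Tcirg1, which encodes the a3 form known from osteoclasts, was at 734 ± 124 in Control and 755 ± 89.8 in Cripto KO MPs (SD, n = 3; not length-scaled).

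Subunit d sits between the ring and the stalk. Atp6v0d1, its general form, was at 212, 234 and 226 in Control and at 202, 214 and 206 in Cripto KO MPs. The groups overlapped only by Control replicate 1, which lay below Cripto KO replicate 2, and the log2 difference was -0.11 (adjusted p = 0.690, limma). Atp6v0d2, a form found in osteoclasts and some MPs, was at 161, 202 and 187 in Control MPs and at 179, 200 and 192 in Cripto KO MPs. Its log2 difference of 0.06 became -0.03 when Control replicate 1 was left out.

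All 8 V1 genes had overlapping groups, as did most genes of the table, of which 14.5% had groups that did not overlap. The log2 differences of the V1 genes lay between -0.11 (Atp6v1d, a subunit of the central rotor) and 0.06 (Atp6v1g1, a subunit of the outer stalk). Atp6v1a and Atp6v1b2, which together form the ATP-splitting head, were at 464 ± 39.1 and 492 ± 41.6 in Control and at 433 ± 32.3 and 498 ± 3.45 in Cripto KO MPs (SD, n = 3 each). The narrowest interval was that of Atp6v1h, a subunit that regulates the coupling of V1 to V0, from -0.11 to 0.16 on the log2 scale. Per kilobase, V1 genes ranged from 33.2 for Atp6v1d to 206 for Atp6v1g1 (means of 6 samples). Levels of Atp6v1g1 and Atp6v1f are uncertain, since 24.0% and 18.4% of their exon words also occur in other annotated genes. The accessory subunits Atp6ap1 and Atp6ap2, which take part in assembly of the pump, had log2 differences of -0.05 and -0.06.

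Within the V-ATPase group, 9 genes had a mean log2 value that was higher and 9 one that was lower in Cripto KO MPs. Apart from Atp6v0e2 none had groups that did not overlap, beside 14.5% of all genes. The median log2 difference of the 17 genes without Atp6v0e2 was -0.04, beside -0.01 over all 13008 genes. The median of all 18 genes was -0.01 as deposited and became 0.03 under quantile normalization, 0.004 in edgeR and 0.003 in DESeq2, so it has no stable sign.

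**Figure D2:**
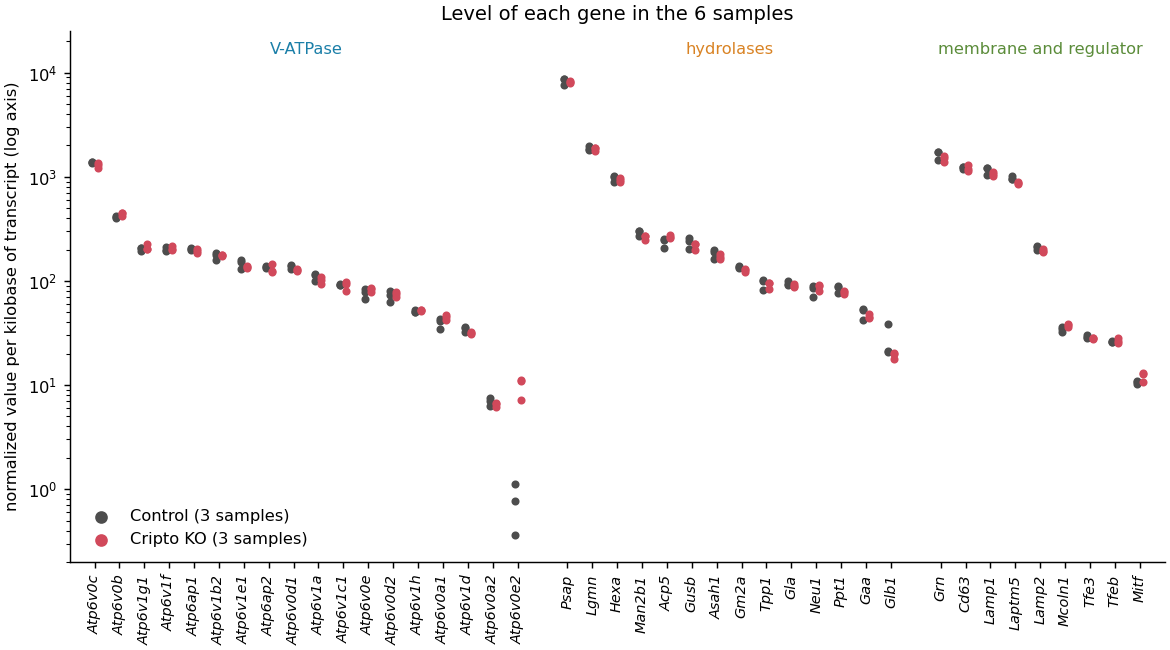
Normalized value per kilobase of the longest coding transcript (log axis) for each of 41 genes, ordered by mean level within its group, with 3 Control samples in grey and 3 Cripto KO samples in red. Psap lies highest, at 8257, and Atp6v0e2 is the gene in which grey and red points are far apart.

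Among the hydrolases no gene passed the adjusted threshold. Psap, the precursor of the saposins that help hydrolases to reach sphingolipids, had by far the highest level, at 8257 ± 449 per kilobase (SD over 6 samples). It was at 20265, 23301 and 23086 in Control and at 21733, 22292 and 20957 in Cripto KO MPs, and all Cripto KO values lay within the range of Control. Its log2 difference was -0.03, with a 95% interval from -0.36 to 0.29. The difference became -0.10 without Control replicate 1 and 0.0016 when Control replicate 2 was left out. Lgmn, the asparaginyl endopeptidase legumain, and Hexa, the alpha subunit of beta-hexosaminidase, followed at 1854 ± 63.6 and 953 ± 55.6 per kilobase (SD over 6 samples). The exons of Hexa overlap those of Tmem202, and 11.4% of their words are shared. Exons of Glb1, Ppt1 and Acp5 also overlap those of another gene (Tmppe, Cap1 and 6530413G14Rik), with 4.50%, 2.70% and 5.58% of their words shared. The part of these overlaps in the values was not tested.

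Glb1, the lysosomal beta-galactosidase, had the lowest level per kilobase of the hydrolases, at 23.1 ± 7.68 (SD over 6 samples), and the largest log2 difference of them. It was at 92.4, 50.1 and 51.4 in Control and at 42.4, 48.9 and 47.1 in Cripto KO MPs. The groups did not overlap, but Control replicate 1 alone was far above the other 5 samples. The log2 difference was -0.43 with a 95% interval from -0.89 to 0.04 (adjusted p = 0.625, limma). Without Control replicate 1 it was -0.14 (adjusted p = 0.622, limma).

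Acp5, the tartrate-resistant acid phosphatase, was at 303, 361 and 365 in Control and at 382, 397 and 374 in Cripto KO MPs. All Cripto KO samples were above all Control samples, with Control replicate 1 lowest (log2 difference 0.17, adjusted p = 0.625, limma). Without Control replicate 1 this difference was 0.08. Man2b1, the lysosomal alpha-mannosidase, was at 1037, 1155 and 1146 in Control and at 1023, 1029 and 949 in Cripto KO MPs. All Cripto KO samples were below all Control samples, and the log2 difference was -0.15 (adjusted p = 0.637, limma).

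The other hydrolases spanned a narrow range of differences, from -0.12 for Ppt1, which removes palmitate from proteins, to 0.10 for Neu1, the lysosomal sialidase. Gm2a, the activator that presents the GM2 ganglioside to beta-hexosaminidase, was the only other hydrolase gene with no overlap, at 560 ± 14.9 in Control MPs and 521 ± 20.4 in Cripto KO MPs (mean ± SD, n = 3 each, adjusted p = 0.690, limma). Of the 14 genes, 12 were lower and 2 (Acp5 and Neu1) higher in Cripto KO MPs by mean log2 value. The median log2 difference was -0.08 as deposited, and between -0.05 and -0.08 under median centring, quantile normalization, edgeR and DESeq2. Leaving out Control replicate 1 gave a median of -0.13, and leaving out Control replicate 2 gave -0.04.

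The membrane and regulator genes were led by Grn, the gene of progranulin, at 1567 ± 140 per kilobase, followed by Cd63, a tetraspanin of late endosomes, at 1216 ± 51.9, and Lamp1, an abundant glycoprotein of the lysosomal membrane, at 1116 ± 88.8 (SD over 6 samples). Grn was at 3380, 4033 and 4064 in Control and at 3573, 3679 and 3275 in Cripto KO MPs. Control replicate 1 and Cripto KO replicate 3 were lowest, and the log2 difference was -0.12 with a 95% interval from -0.36 to 0.12. Leaving out Control replicate 1 made this difference -0.21, and leaving out Control replicate 2 made it -0.08. Lamp1 and Lamp2 had log2 differences of -0.11 and -0.09, that of Lamp1 being -0.19 without Control replicate 1 and -0.07 when Control replicate 2 was left out, and Cd63, of whose exon words 15.9% are shared, mostly with Cd63-ps, had -0.02. Exons of Lamp1 overlap those of Grtp1, with 7.30% of their words shared, and exons of Grn overlap those of Fam171a2. Of the 9 genes, 6 were lower and 3 (Mitf, Mcoln1 and Tfeb) higher in Cripto KO MPs by mean log2 value. Their median log2 difference was -0.05 as deposited and 0.006 under quantile normalization, so its sign depended on the scaling.

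Laptm5, a lysosomal membrane protein of blood cells, was at 2496, 2675 and 2454 in Control and at 2286, 2300 and 2209 in Cripto KO MPs. All Cripto KO samples were below all Control samples, with a log2 difference of -0.17 (adjusted p = 0.620, limma). Mcoln1, a cation channel that releases calcium from lysosomes, was at 74.2, 66.2 and 71.3 in Control and at 75.0, 78.0 and 79.3 in Cripto KO MPs. Here the Cripto KO samples were the higher ones without overlap, though Control replicate 1 and Cripto KO replicate 1 were less than 1 apart (log2 difference 0.14, adjusted p = 0.659, limma). Without Control replicate 2 this difference was 0.09.

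The transcription factors that control lysosomal genes had the lowest levels per kilobase among the membrane or regulator genes. Tfeb was at 60.2, 60.2 and 62.7 in Control and at 58.9, 62.4 and 65.8 in Cripto KO MPs, and the groups overlapped (log2 difference 0.03, 95% interval from -0.13 to 0.19). Tfe3 was at 102, 96.2 and 98.6 in Control and at 93.7, 96.9 and 95.2 in Cripto KO MPs, with overlap as well (log2 difference -0.05, 95% interval from -0.19 to 0.09). Mitf, the lowest of the group at 11.5 ± 1.21 per kilobase (SD over 6 samples), was at 50.5, 52.3 and 53.4 in Control and at 52.5, 62.7 and 64.1 in Cripto KO MPs. Cripto KO replicate 1 lay among the Control samples and the other Cripto KO samples above them, and the log2 difference was 0.19 (adjusted p = 0.603, limma).

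Apart from Atp6v0e2, no member passed an unadjusted p of 0.05, which 8.59% of all genes did. In 27 of 41 members (65.9%) the mean log2 value was lower in Cripto KO MPs, beside 52.6% of all genes. The count was 24 under quantile normalization, with 8 V-ATPase, 12 hydrolase and 4 membrane or regulator genes, and 27 under median centring, edgeR and DESeq2. Under quantile normalization 50.4% of all genes were lower in Cripto KO MPs. Values did not overlap, with Cripto KO lower, in 4 members (Glb1, Man2b1, Gm2a and Laptm5), beside 8.02% of all genes. They did not overlap, with Cripto KO higher, in 3 members (Atp6v0e2, Acp5 and Mcoln1), beside 6.43% of all genes. Both counts lie near these shares of all genes.

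The intervals set how large an undetected difference could be. For 39 of the 40 members without Atp6v0e2, the 95% interval lay within a 1.5-fold difference in either direction, and for all 40 within 2-fold. Glb1 was the member whose interval went beyond 1.5-fold. For the 12967 genes of the table that are not members, 63.4% and 81.7% of intervals lay within these limits. Apart from Atp6v0e2, the lowest number of reads of a member in any sample was 458, for Atp6v0a2.

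**Figure D3:**
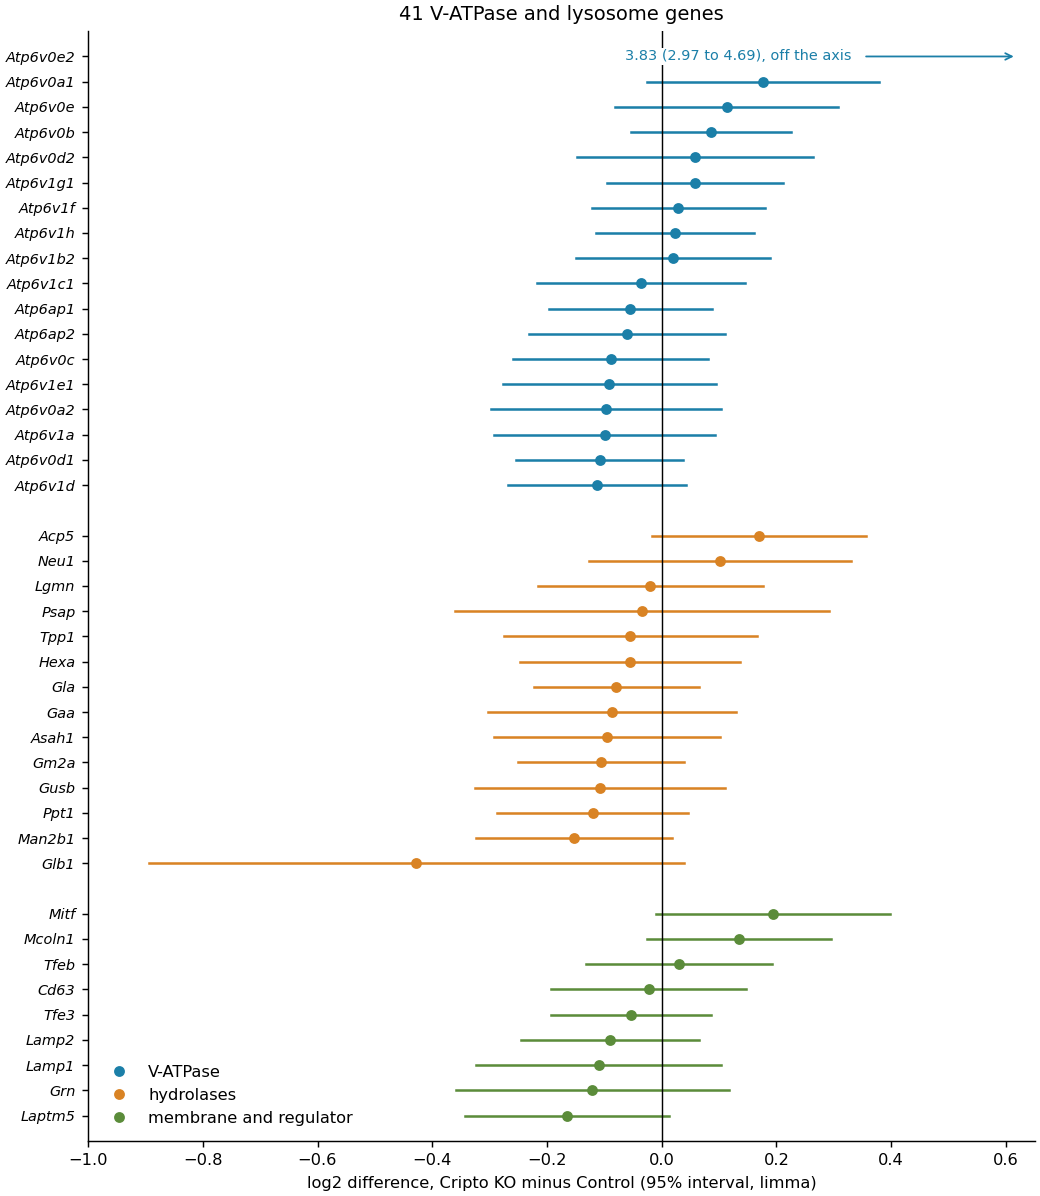
Log2 difference, Cripto KO minus Control, with its 95% interval (limma) for each of 41 genes, sorted within the V-ATPase (blue), hydrolase (orange) and membrane or regulator (green) groups. Atp6v0e2, at 3.83, lies off the axis and is given in words, and all other intervals include 0.

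Members tended to be high or low together in a sample. Control replicate 1 was the lowest Control sample in 29 of 41 members, beside 36.7% of all genes, and Control replicate 3 in 2 members. Hydrolases were, at the median, 0.08 lower on the log2 scale in Control replicate 1 than their mean over 6 samples, and 0.10 and 0.08 higher in Control replicates 2 and 3. In Cripto KO replicates 1, 2 and 3 the same median deviation was -0.04, 0.01 and -0.10. Summed over the 14 hydrolases, the values were 29860, 33545 and 33529 in Control MPs and 31484, 32306 and 30334 in Cripto KO MPs. Control samples thus had both the lowest and the highest of these sums, but Psap made up most of each sum. With Psap left out, Cripto KO replicate 3 had the lowest sum, at 9377, below the 9595 of Control replicate 1. The highest sum without Psap was the 10443 of Control replicate 3, and Cripto KO replicates 1 and 2 reached 9751 and 10014.

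The count of members with no overlap depended on Control replicate 1. Without it, 20 of 41 members were lower in Cripto KO MPs without overlap (15.8% of all genes in the same fit), among them 10 of 14 hydrolases, and 11 members had an unadjusted p under 0.05 (10.5% of all genes). Those 11 were Atp6v0e2 and Mcoln1, which were higher, and Atp6v0d1, Atp6v1e1, Gaa, Gusb, Man2b1, Asah1, Ppt1, Lamp1 and Grn, which were lower in Cripto KO MPs. None but Atp6v0e2 passed the adjusted threshold, and the next smallest adjusted p was 0.372 for Ppt1 (limma), with a log2 difference of -0.19. Without Control replicate 2, 7 members were lower without overlap (13.3% of all genes) and 4 had an unadjusted p under 0.05 (7.97% of all genes). The log2 difference moved by over 1.5 times, or changed sign, in 27 of 41 members without Control replicate 1 and in 16 without Control replicate 2. When each of the 6 samples was left out in turn, 10 members took the opposite sign at least once (Atp6v0d2, Atp6v1b2, Atp6v1c1, Atp6v1f, Lgmn, Neu1, Psap, Tpp1, Cd63 and Tfeb).

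Of the 5 members on the X chromosome, Gla and Tfe3 were highest of all samples in Control replicate 1, at 316 and 102, while Atp6ap1, Atp6ap2 and Lamp2 were within the range of the other samples there.

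**Figure D4:**
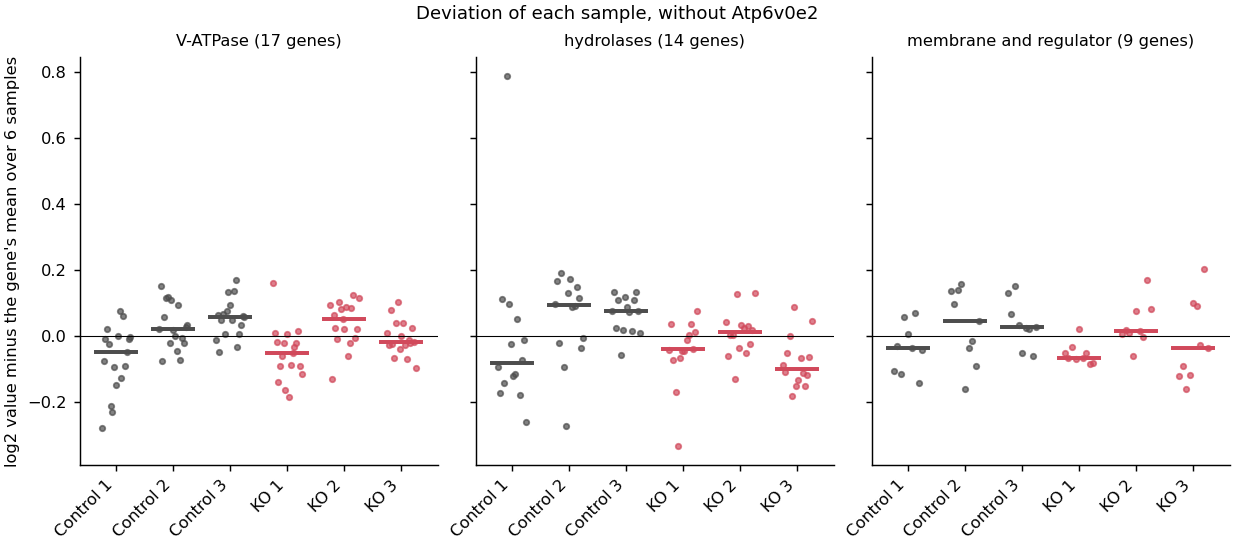
Log2 value of each gene minus its mean over 6 samples, for 17 V-ATPase genes, 14 hydrolases and 9 membrane or regulator genes, without Atp6v0e2, with points in grey (Control) and red (Cripto KO) and bars at the medians. Control replicate 1 lies lower than the other Control samples in each group, and the single high point among the hydrolases is Glb1 in Control replicate 1.

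Promoter windows (300 bases, from 250 before to 50 after the start site) were available for 34 of the 41 members. They were searched for the E-box palindrome CACGTG, and for TCACGTGA, which contains it and is the core of the motif bound by TFEB, TFE3 and MITF. Each reads the same on both strands. CACGTG was in 10 of 34 members (Atp6v0b, Atp6v0d1, Atp6v0e, Atp6v1a, Gaa, Gla, Glb1, Lamp1, Lgmn and Mcoln1) and in 8.09% of 27025 genes with such windows. TCACGTGA was in 5 of 34 members and in 1.12% of all genes. These 5 members are shown with 21 bases on either side of the motif, which stands in capitals. They carry the longer palindrome, which Atp6v0e2, like most of the 34 members, does not have.
Atp6v0d1: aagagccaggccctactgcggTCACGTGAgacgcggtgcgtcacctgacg
Atp6v0e: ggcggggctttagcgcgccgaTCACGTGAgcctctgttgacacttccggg
Atp6v1a: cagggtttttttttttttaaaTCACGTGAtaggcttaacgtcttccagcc
Gla: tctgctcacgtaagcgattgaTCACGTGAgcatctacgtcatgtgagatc
Mcoln1: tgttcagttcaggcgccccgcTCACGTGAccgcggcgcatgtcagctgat
They lie at chr8:105566040-105566089 (minus strand), chr17:26676377-26676426 (plus), chr16:44139363-44139412 (minus), chrX:134601205-134601254 (minus) and chr8:3500452-3500501 (plus), in this order. Gla holds the motif at 2 places, of which that farther from the start site is printed. The log2 differences of the 5 genes were -0.11, 0.11, -0.10, -0.08 and 0.14, and none passed the adjusted threshold. A match is a description of the letters and does not show that a factor was bound. Atp6v0a2, Atp6v0d2, Atp6v1b2, Atp6v1c1, Atp6v1g1, Atp6v1h and Asah1 had no entry.

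Other genes of the same pathways were taken from 4 lists and showed no call either. Of 13 measured genes for other V-ATPase subunits and assembly factors, 1 had an unadjusted p under 0.05. This was Tmem199, a factor for pump assembly, at 11.1 ± 0.572 in Control MPs and 13.9 ± 1.22 in Cripto KO MPs (mean ± SD, n = 3 each; log2 difference 0.33, adjusted p = 0.514, limma). Of 25 other hydrolases, Lipa, the lysosomal acid lipase, was the 1 below that level, at 553, 674 and 654 in Control and at 706, 711 and 740 in Cripto KO MPs (log2 difference 0.20, adjusted p = 0.555, limma). All Cripto KO values of Lipa were above those of Control.

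Of 23 other lysosomal membrane proteins, 3 had an unadjusted p under 0.05. The log2 difference was -0.17 for Scarb2, the receptor that carries glucocerebrosidase to lysosomes, -0.29 for Slc17a5, which exports sialic acid, and 0.61 for Mcoln3, a channel related to Mcoln1. Of 22 genes for nutrient sensing at the lysosome and control of TFEB, Ppp3ca, a catalytic subunit of calcineurin, had -0.19. All 4 of these genes had an adjusted p of 0.517 or more (limma). The share of genes below an unadjusted p of 0.05 was thus 6 of 83 over the 4 lists, and 8.59% over all genes.

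The sorted cells expressed the MP markers in every sample. The 12 genes of the MP list were all measured and summed to between 21864 and 22183 in Control MPs and between 20586 and 22456 in Cripto KO MPs. Among them, Adgre1, the gene of F4/80, was 1230 ± 49.3 in Control MPs and 1198 ± 166 in Cripto KO MPs (mean ± SD, n = 3 each). Of the fibroblast list, 6 of 6 genes were higher in Cripto KO MPs by mean log2 value, 5 with an unadjusted p under 0.05 and 0 past the adjusted threshold. Its summed value was between 459 and 481 in Control MPs and between 540 and 591 in Cripto KO MPs. The part of these cells in the difference of Atp6v0e2 was not tested.

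For the other cells of muscle and blood the sums were lower. The muscle list, of which 5 of 6 genes were measured, summed to between 25.1 and 58.1 in Control MPs and between 13.2 and 40.2 in Cripto KO MPs. Of these 5 genes, 3 had an unadjusted p under 0.05 (limma), and all 3 had lower means in Cripto KO MPs. Their log2 differences were -3.58 for Myh4, whose groups did not overlap, -3.11 for Myh1 and -1.71 for Ckm. The list was not lower throughout, since Acta1 had a log2 difference of -0.28 and Des one of 0.22, both with overlapping groups. None passed the adjusted threshold (limma), and the part of muscle RNA in the values of the members was not tested. The 5 genes of Ly6C High monocytes summed to between 59.0 and 91.4 and between 70.8 and 93.5, and those of endothelium to between 33.7 and 41.6 and between 32.0 and 38.3, in the same order. Of the neutrophil genes, S100a9 and Retnlg had 0 reads in every sample, and Csf3r made up most of the sum of 93.0 to 105. Of lymphocyte genes, 2 of 4 were measured, with a sum of 0.245 or less. The osteoclast list, 3 of 5 genes, summed to between 72.8 and 96.6 in Control MPs and between 83.6 and 144 in Cripto KO MPs. Most of this sum was Ctsk, at 63.1, 81.9 and 91.2 in Control and at 76.6, 137 and 133 in Cripto KO MPs (log2 difference 0.52, adjusted p = 0.548, limma). The other measured genes of this list, Ocstamp and Dcstamp, had log2 differences of -0.08 and -0.04, with overlapping groups. Cripto KO replicates 2 and 3 were the highest samples for both Ctsk and Atp6v0e2, whereas Dcstamp was lowest in Cripto KO replicate 3, at 1.83. A relation of Atp6v0e2 to this list was not tested.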

How the data were processed

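The authors trimmed reads with Cutadapt 1.7.1, discarded those under 30 bases, used RSEM 1.2.20 to quantify the rest against mouse transcripts (GRCm38, Ensembl release 91), and normalized with limma. The library kit (NEBNext Ultra RNA) is not stated to mark strand, so reads of overlapping genes cannot be told apart. Each deposited value is a signal, normalized by library, that equals the reads of a gene plus 0.5, scaled to a library of 1000000. Whole reads were recovered for 100.0% of 78048 values, within 0.01 read. No value was 0.

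Groups were compared with limma (3.58.1, R 4.3.3) on log2 values without a pseudocount, with a variance trend and without a replicate block, over 13008 genes with Benjamini-Hochberg adjustment. The edgeR quasi-likelihood test (4.0.16, TMM) on the recovered reads called 17 genes, the same number as limma. The alternatives were DESeq2 (1.42.0), quantile normalization, median centring, robust variances, no variance trend, a pseudocount of 0.5 or 1, a minimum mean value of 1, a replicate block, and fits without single samples. The tests were also run on simulated counts with the same dispersion for every gene and no outlying samples. That setting differs from these data, so it does not check the call of Atp6v0e2. The members, lists and tests were chosen with earlier results of these data known.

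Values in every sample were given for members past the adjusted threshold, the 3 members with the smallest p in each group, both genes of subunit e, Tfeb, Tfe3 and Mitf, and the highest and lowest member of each group per kilobase. Gm2a, other members described by role, and the genes next to Atp6v0e2 were described in addition, some of them after their values were seen. From the other lists, genes with an unadjusted p under 0.05 were named. Transcript lengths and exons came from GENCODE M21 (GRCm38), with the longest coding transcript for levels per kilobase, and sequence shared between genes was measured in words of 31 bases. A symbol present on more than 1 row was read from its row with the highest mean, and no member was such a symbol. Tables were made with Python 3.11.15 (numpy 2.4.6, pandas 2.3.3, scipy 1.17.1) and plots with matplotlib 3.10.9.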

Additional observations from a re-analysis of the deposited data

How the results depend on the processing

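The limits are those of 3 samples per group, of Control libraries that stood apart, and of few reads for Atp6v0e2 in Control. Atp6v0e2 kept its direction and an adjusted p under 0.05 in 12 of 16 alternatives. Its log2 difference was 3.83 without a variance trend (adjusted p = 0.157, limma) and 3.83 with the replicate block (adjusted p = 0.0552, limma), and ranged from 3.37 to 4.19 when single samples were left out. Over the other alternatives that kept all samples, its adjusted p was between 1.09e-30 (DESeq2) and 0.0321 (quantile normalization, limma). The members past the adjusted threshold numbered 0 without a variance trend and 0 with the replicate block, and from 0 to 1 when single samples were left out (0 without Cripto KO replicate 2 or 3). All genes past it numbered 6 with quantile normalization, 5 without a trend, 31 with robust variances, 71 with DESeq2, 2 with the replicate block, and from 5 to 31 when single samples were left out. The block changed no other call among members. Deviations from the group means correlated at -0.21, -0.005 and -2.5e-05 in same-numbered samples, and between -0.15 and 0.14 in the other pairs. With 3 samples per group, these values cannot decide whether samples were paired. The study numbers the same Control samples in another order elsewhere, so the numbers used here name columns of the deposited table only. Members without overlap, 7 in all, numbered from 9 to 25 when single samples were left out, with 25 without Control replicate 1, 11 without Control replicate 2 and 14 without Cripto KO replicate 2, beside 28.1%, 24.7% and 26.0% of all genes in the same fits. Members lower in Cripto KO MPs, 27 in all, numbered from 25 to 29. The median log2 difference of membrane and regulator genes was 0.0062 with quantile normalization. When single samples were left out, the log2 difference of Psap ranged from -0.099 to 0.0016 (without Control replicate 2) and that of Tfeb from -0.0096 (without Cripto KO replicate 3) to 0.070, so each took the opposite sign once. All 41 members were refitted under every alternative, but values were compared one by one only for the 14 members, other than Atp6v0e2, that were chosen for values in every sample. Among these 14 there were 2 exceptions, and the other 222 of 224 values stayed on the same side of 0 and of the threshold. This count does not cover the remaining members. Among all 41 members, 10 took the opposite sign in at least 1 fit without a single sample. The share of Atp6v0e2 in Cripto KO MPs was 10.4% with the union of exons as length and between 9.92% and 11.5% when single samples were left out. The union could hardly move the share, because both lengths of Atp6v0e exceed those of Atp6v0e2 in nearly the same proportion (2812 and 1789 bases, 3712 and 2381 bases). The coding sequences, of 312 and 336 bases, were not used as lengths, so the share holds for transcript lengths only. These shares, and the leave-one-out counts of members lower in Cripto KO MPs or with the opposite sign, were added after seeing the data. The cause of these changes was not tested.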
